A study of Rattus norvegicus with 10 samples.

Results

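The liver response to total-body irradiation (TBI) was examined across rats with and without a radioprotective drug. All 7 irradiated livers of the series were pooled and set against the 3 untreated livers. These 10 arrays were the whole series. Male Wistar rats had received no irradiation (control, n = 3), 6.5 Gy of 60Co gamma rays (TBI, n = 3), or the same dose after MASM, a derivative of the plant alkaloid matrine, given by stomach tube at 30 mg/kg a day for 3 days beforehand (MASM + TBI, n = 4). Livers were taken 24 h after irradiation, no array of MASM without irradiation was analysed here, and the study names water as the alternative to MASM, while the labels name no vehicle for control and TBI rats. The dose is that of the labels, while the study's text gives 6 Gy for such arrays. Each array carried the RNA of 1 rat, and with 3 to 4 rats a group this number bounds the precision of all values given.

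Ionising radiation breaks DNA and stabilises the transcription factor p53, whose targets stop the cell cycle (Cdkn1a), restrain p53 itself (Mdm2) or promote cell death (Bax, Fas). Adult hepatocytes are mostly quiescent, so the transcripts of mitosis in whole liver come from the few cells in cycle, and the liver also holds lymphocytes, natural killer cells and macrophages, of which lymphocytes are among the most radiosensitive cells of the body. Type I interferon acts through transcription factors that bind an element with a core of GAAA repeats in the promoters of antiviral genes. In whole tissue, fewer cells of a type and less RNA per cell cannot be told apart.

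Of 40945 probes measured on every array, 22814 were well above background on all control arrays or on all irradiated arrays, and these are the probes described. A probe was called when the pooled irradiated mean differed from the control mean by at least 1.5-fold at an adjusted p under 0.05 in limma. Over all probes, 344 were called higher (0.84%) and 673 lower (1.64%). Among the described probes 297 were higher, with a median log2 difference of 0.912, and 557 were lower, with a median of -1.06. These 854 probes named 429 genes, and 367 of them had no gene symbol here. With each gene represented by its brightest probe, 146 of 13426 genes were called higher (1.09%) and 292 lower (2.17%), of which 17 rose and 60 fell by a fitted 4-fold or more, values at background included. The median log2 difference over all genes was -0.00253, and 49.6% of genes were higher after irradiation. Quantile normalisation gives every array the same distribution of values and tends to hold both near an even split. Among all genes, 390 were eligible for ranking, being called, without overlap between groups, and measured above background throughout the brighter side. Values of the 2 groups did not overlap for 844 of the 854 probes, beside 13.8% of the described probes and 8.89% of all probes. The rule for calling favours probes without overlap, so this count is no separate evidence.

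The arrays lay on 3 slides. Slide 1 held the 3 controls and MASM + TBI array 3, slide 2 the TBI arrays, and slide 3 the other MASM + TBI arrays, so that slide and group cannot be told apart except through that 1 irradiated array. All 854 called probes had the same direction on slide 1, where 734 differed by at least 1.5-fold, although that array was itself part of the fit. With slide as a fixed block the contrast rests on that array alone, and 224 described probes were called. The share of spots well above background was 57.2% to 59.9% on control arrays, 64.1% to 70.1% on TBI arrays and 56.2% to 60.2% on MASM + TBI arrays, and the irradiated mean exceeded the control mean by 3.66 percentage points (exact permutation test, two-sided, p = 0.3).

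The promoters of the genes that lead the results are shown first, because 2 of the gene sets that fell hold common promoter motifs. RefSeq promoters (build GRCr8) were read over the 250 bases before the start of each gene. The core of GAAA, any 2 bases and GAAA again, read on both strands, was present in 11 of the 18 interferon-stimulated genes with a promoter sequence (61.1%) and in 3.41% of 33469 promoters. Of these, 3 are given with the core in capitals, on the strand of the gene: Rsad2 (chr6:48788231-48788290, minus strand), Ifit3 (chr1:241527266-241527325, plus strand) and Oas1a (chr12:41330406-41330465, plus strand, where 2 cores overlap).
Rsad2: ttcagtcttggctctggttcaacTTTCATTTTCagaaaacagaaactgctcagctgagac
Ifit3: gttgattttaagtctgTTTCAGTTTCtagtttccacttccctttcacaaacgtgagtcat
Oas1a: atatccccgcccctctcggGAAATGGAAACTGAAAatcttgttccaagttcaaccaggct

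Genes of G2 and mitosis are known to carry a cell cycle homology region (CHR, here TTTGAA or TTTAAA on either strand) beside CCAAT boxes bound by NF-Y. The CHR letters were present in 22 of 28 mitosis promoters (78.6%), 3 of 24 DNA replication promoters (12.5%) and 25.4% of all promoters, and CCAAT on either strand in 22 of 28 (78.6%), 13 of 24 (54.2%) and 34% in turn. The promoters of 3 mitotic genes are given with both motifs in capitals: Ccnb2 (chr8:79981689-79981798, minus strand), Cdk1 (chr20:19265203-19265292, plus strand) and Ccnb1 (chr2:33655226-33655315, minus strand).
Ccnb2: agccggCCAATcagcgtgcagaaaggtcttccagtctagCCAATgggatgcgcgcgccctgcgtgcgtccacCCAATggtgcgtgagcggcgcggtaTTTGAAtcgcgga
Cdk1: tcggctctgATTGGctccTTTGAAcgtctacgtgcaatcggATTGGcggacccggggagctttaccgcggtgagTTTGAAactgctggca
Ccnb1: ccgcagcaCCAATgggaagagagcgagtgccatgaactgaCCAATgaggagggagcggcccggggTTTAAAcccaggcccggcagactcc
These matches describe letters in a window and not binding.

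The 2 largest fitted rises among the eligible genes, in Cdkn1a and Gdf15, were in targets of p53. Of 28 measured targets, 12 were called higher and 1 lower, with a median log2 difference of 0.68, beside 1.09% and 2.17% of all genes and a median of -0.00253. The median was 0.60 for TBI against control and 0.74 for MASM + TBI against control, comparisons that share their controls. Cdkn1a, which encodes the p21 inhibitor of cyclin-dependent kinases, had log2 signals of 8.01, 8.25 and 8.84 in the controls, and between 12.80 and 14.06 in the irradiated livers, with a median of 13.47. Every irradiated liver thus lay far above every control. The log2 difference was 5.04 (SE 0.27, adjusted p = 4.81e-05), a 32.9-fold rise.

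Gdf15, a secreted stress cytokine, had log2 signals of 5.73, 6.64 and 6.23 in controls and of 8.97 to 10.88 (median 10.55) after irradiation, which was 17.3-fold higher (log2 difference 4.11, SE 0.38, adjusted p = 0.000536). Ccng1, cyclin G1, was at 8.61, 9.12 and 8.62 in controls and at 10.74 to 11.82 (median 11.36) in irradiated livers, 5.82-fold higher. Phlda3, a repressor of Akt signalling, was at 6.22, 6.30 and 6.71 in controls and at 8.65 to 9.15 (median 8.91) after irradiation, 5.54-fold higher with an adjusted p of 3.78e-05. Neither of the irradiated groups overlapped the controls for any of these genes.

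The exonuclease gene Aen rose 2.87-fold, Tp53inp1, which takes part in autophagy, 2.65-fold, and Mdm2, the ubiquitin ligase of p53, 2.28-fold. The death genes Bax and Fas rose 2.27-fold and 2.16-fold, and Bax was tightly grouped, at 8.02, 8.01 and 8.17 in controls and at 9.11 to 9.34 (median 9.31) after irradiation. The RNA-binding gene Zmat3 rose 2.13-fold and the sestrin Sesn2 1.88-fold. The calls of these 11 genes held in limma with each array left out in turn. Btg2, an antiproliferative gene, had a log2 difference of 2.84 (adjusted p = 0.0176), but lost its call without control 1 (adjusted p = 0.0728) or control 3 (0.0851).

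Of 26 apoptosis regulators outside that list 1 was called in each direction, beside 1.09% of all genes called higher and 2.17% lower, which is too few to read as a result about the list. Bik, which promotes death, was above background on 2 of 3 controls and at least 2.01-fold higher (adjusted p = 0.0154), and Bcl2l11, which also promotes it, was called lower (-0.70, adjusted p = 0.0271). Bik lost its call without control 2 or 3 (adjusted p = 0.0643 and 0.076), and Bcl2l11 without control 1, 2 or 3 (0.0985, 0.0849 and 0.105) or without MASM + TBI 1 or 2 (0.0513 and 0.0512).

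Several textbook targets were not called. The log2 difference was 0.07 for the death gene Bbc3 (Puma), 0.18 for the phosphatase Ppm1d, -0.12 for Perp and -0.43 for Apaf1. Xpc, a sensor of damage in nucleotide excision repair, was at 8.09, 8.44 and 8.17 in controls and at 6.80 to 7.61 (median 7.31) after irradiation, which was called lower (adjusted p = 0.0266), but lost the call without control 1, 2 or 3 (adjusted p = 0.0608, 0.116 and 0.0994). With slide as a fixed block, 8 targets were called higher and none of the 28 lower. A single decamer of the p53 element, whose full form is a pair of decamers, was present in 4 of 23 target promoters (17.4%) and in 6.64% of all promoters, and the pair in 0 of 23 and in 0.0388% of all promoters.

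**Figure D1:**
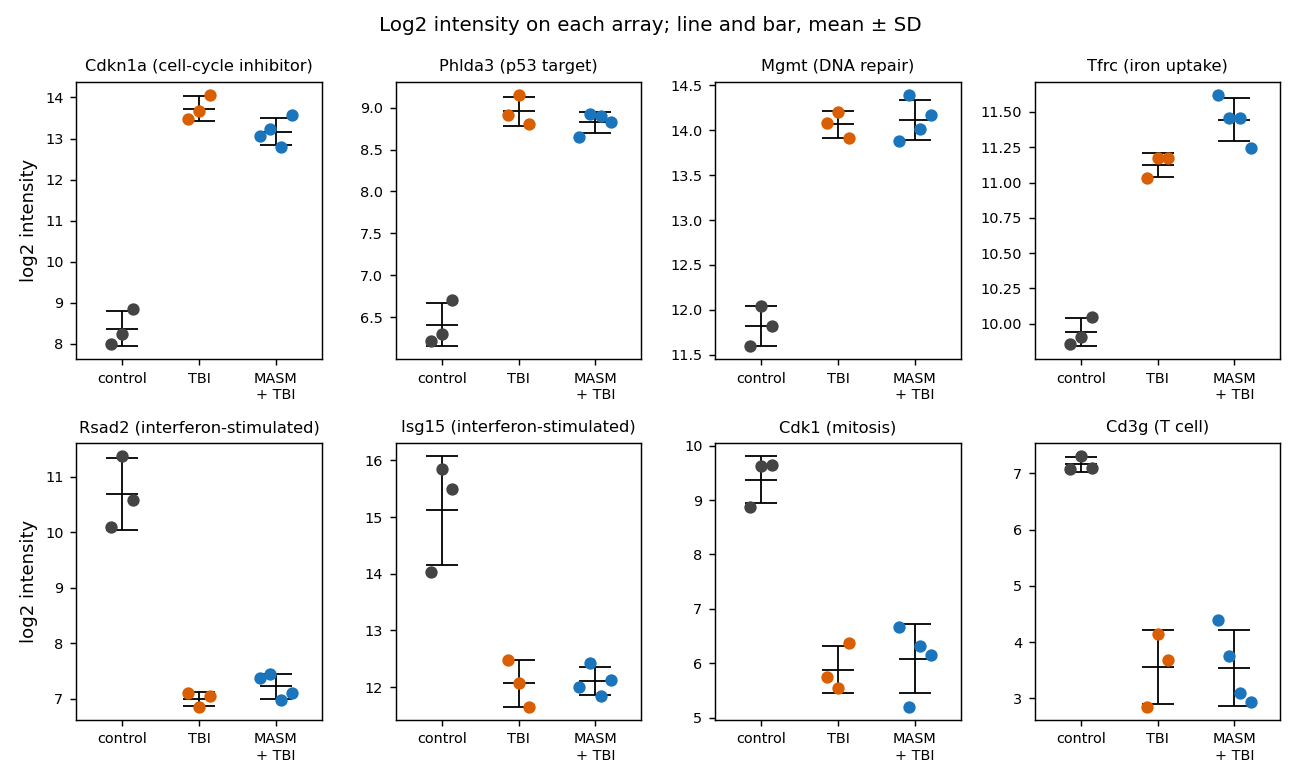
Log2 signal (quantile normalised) of 8 genes on each array, by group (control, n = 3; TBI, n = 3; MASM + TBI, n = 4), with 1 point per rat and lines for the mean ± SD. Cdkn1a, Phlda3, Mgmt and Tfrc lay higher in every irradiated liver than in any control, and Rsad2, Isg15, Cdk1 and Cd3g lay lower.

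Of 29 DNA repair genes measured, 1 was called higher and 3 lower, beside 1.09% and 2.17% of all genes, and the median log2 difference was -0.07. Mgmt, which removes methyl groups from guanine, was at 11.59, 12.04 and 11.82 in controls and at 13.88 to 14.39 (median 14.08) in irradiated livers. It was 4.85-fold higher (log2 difference 2.28, SE 0.13, adjusted p = 5.19e-05), and the irradiated groups differed from each other by 0.05 (95% interval -0.30 to 0.40). Outside the list, Nhej1, a factor of non-homologous end joining, was at 5.43, 5.35 and 5.53 in controls and at 7.35 to 8.32 (median 8.17) after irradiation, 5.92-fold higher.

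Rad54l, a helicase-like motor of recombination, was at 6.65 or below in controls and at 4.86 to 5.26 (median 5.13) in irradiated livers, 2.35-fold lower (adjusted p = 0.00213). Chek2, a checkpoint kinase, had a log2 difference of -1.07 (adjusted p = 0.0433) but was not called without any control (adjusted p = 0.141, 0.097 and 0.0908), without TBI 1 or 2 (0.0741 and 0.0654) or without MASM + TBI 1, 2 or 3 (0.0839, 0.0583 and 0.0657). Bard1, the partner of Brca1, was at least 4.04-fold lower (adjusted p = 0.0023), since it was above background on no irradiated array.

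Most measured mitotic genes were called lower. Of 35 measured, 23 were called lower and 1 higher, beside 2.17% and 1.09% of all genes, 32 were lower, and the median log2 difference was -1.47. It was -1.58 for TBI and -1.56 for MASM + TBI, each against the same controls. Of the 23, 19 met the rule for description, while Aurkb, Pbk, Prc1 and Cdca8 were above background on only 2 of the 3 controls. Cdk1, the kinase that starts mitosis, was at 8.87, 9.62 and 9.64 in controls and at 5.19 to 6.67 (median 6.15) after irradiation. Every irradiated liver lay below every control, and the fall was 10.4-fold (log2 difference -3.38, SE 0.32, adjusted p = 0.000648).

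Its partner cyclin B1 (Ccnb1) was at 6.41, 7.12 and 6.87 in controls and at 2.64 to 4.31 (median 3.85) in irradiated livers, above background on 5 of these 7. Where only some arrays of the dimmer side were above background, the fold is given as a bound that sets dim values to the dimmest signal called above background on their array. Ccnb1 was at least 7.42-fold lower, and Ccnb2, above background on 1 of 7 irradiated arrays, at least 7.40-fold lower. Plk1, a kinase of centrosome and spindle, was at 7.78, 8.86 and 8.90 in controls and at 5.61 to 6.20 (median 5.87) after irradiation, 6.24-fold lower.

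The spindle kinesin Kif20a was 8.88-fold lower (adjusted p = 0.000126), the spindle checkpoint kinase Ttk at least 7.15-fold lower with 1 of 7 irradiated arrays above background, and the kinetochore gene Nuf2 at least 4.63-fold lower. The survivin gene Birc5 fell 3.25-fold and the checkpoint kinase Bub1 3.14-fold. Outside the list, the chromokinesin Kif22, above background on 1 of 7 irradiated arrays, was at least 7.58-fold lower, and Fam111a, the linker histone H1f1 and Pimreg were at least 4.46-fold, 4.88-fold and 4.19-fold lower. Ccna2, cyclin A2, was at least 9.55-fold lower (adjusted p = 0.00818), with 1 of 7 irradiated arrays above background, and lost its call without control 3 (adjusted p = 0.0518).

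Members of the mitosis list that were not called included Cdc20 at -0.61, Aurka at -0.29 and Cks2 at -0.15. Mybl2, a transcription factor of the cycle, went the other way, with a log2 difference of 2.33 (adjusted p = 0.0259), but lost its call without control 1, 2 or 3 (adjusted p = 0.0952, 0.0985 and 0.0769). Its relative Mybl1 was at least 6.60-fold higher (adjusted p = 0.00378), with 1 of 3 controls above background. The calls of 15 of the 23 lower genes held with every array left out, 15 genes were called lower without control 3 alone, and 5 with slide as a fixed block. The median of the list on slide 1 was -1.30.

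Genes of DNA replication were lower as well. Of 29 measured, 12 were called lower and 1 higher, beside 2.17% and 1.09% of all genes, with a median log2 difference of -0.67. Cdc45, a subunit of the replicative helicase, was at 8.37, 8.45 and 8.33 in controls and at 6.46 to 7.12 (median 6.69) in irradiated livers, 3.15-fold lower (log2 difference -1.66, SE 0.13, adjusted p = 0.000237). Mcm6, another helicase subunit, was at least 3.64-fold lower and above background on 1 irradiated array, and Mcm2 was 2.20-fold lower.

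The chromatin assembly factor Chaf1b fell 3.62-fold, the polymerase Pold1 2.06-fold and the ligase Lig1 1.87-fold. E2f1, the transcription factor that drives S phase genes, was at 6.87, 6.90 and 7.11 in controls and at 4.28 to 5.38 (median 4.68) after irradiation, 4.60-fold lower. Tyms, thymidylate synthase, was the member that rose, from 7.14, 7.14 and 7.34 in controls to 7.88 to 8.46 (median 8.14), 1.94-fold higher (adjusted p = 0.00409). In a list of 17 G1 cyclins, CDK inhibitors and related factors, 3 were called lower, namely Cdkn2c, Cdkn2d and the transcription factor E2f1. None was called higher, and the CDK inhibitor Cdkn1a is held in the p53 list. The CDK inhibitor Cdkn2d was 1.82-fold lower (adjusted p = 0.000522). Of the replication list, 7 genes were called lower without control 3 and 3 with slide as a fixed block.

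**Figure D2:**
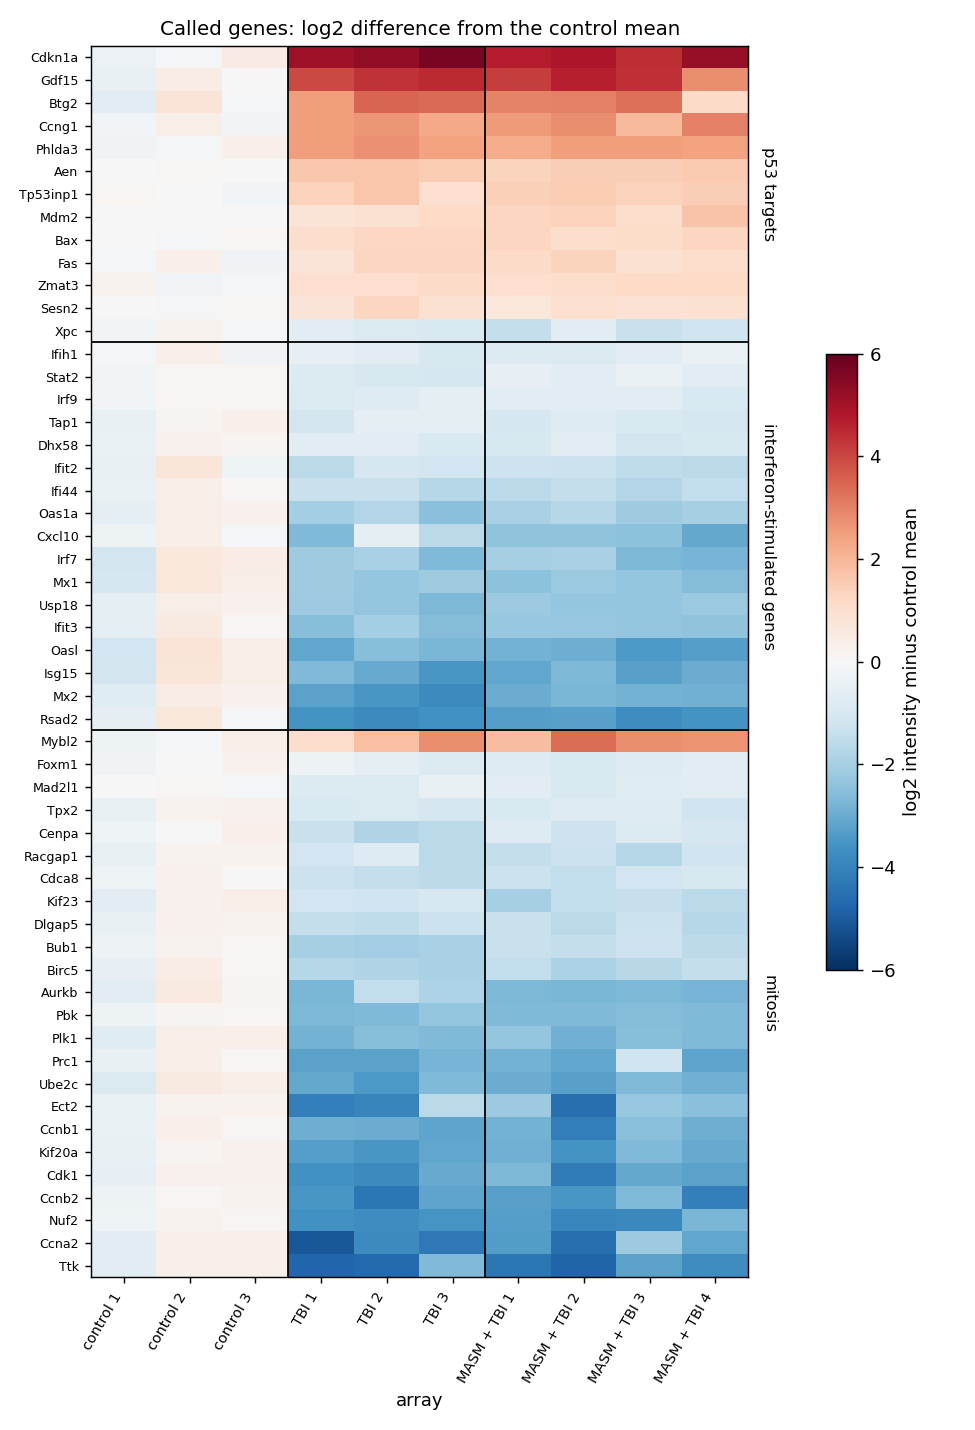
Log2 signal minus the mean of the 3 controls, on each of the 10 arrays (columns, by group), for the called genes among p53 targets, interferon-stimulated genes and mitotic genes (rows, 1 called gene not shown). The p53 targets other than Xpc are above 0 and the interferon-stimulated genes below 0 in the irradiated columns, and among mitotic genes Mybl2 alone is above.

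Interferon-stimulated genes were lower in the irradiated livers. Of 25 measured, 18 were called lower and none higher, all 24 members above background on some array had an estimate below 0, and the median log2 difference over the 25 was -1.36, beside 2.17% of all genes called lower. The sign of these 24 held under quantile, 75th percentile and normexp processing. Isg15, a ubiquitin-like antiviral protein, was at 14.03, 15.85 and 15.49 in controls and at 11.65 to 12.48 (median 12.08) in irradiated livers. The controls were spread more widely than the irradiated livers, without overlap, and the fall was 8.20-fold (log2 difference -3.04, SE 0.35, adjusted p = 0.00193).

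Rsad2, viperin, was at 10.10, 11.38 and 10.58 in controls and at 6.85 to 7.45 (median 7.09) after irradiation, 11.8-fold lower (log2 difference -3.56, SE 0.24, adjusted p = 0.000107). Mx2 and Mx1, GTPases that restrict viruses, fell 8.80-fold and 4.98-fold. Usp18, which removes Isg15 and damps the interferon receptor, had a log2 difference of -2.32 (SE 0.19, adjusted p = 0.000316), with irradiated livers at 8.58 to 9.11 (median 8.97). Ifit3 fell 5.12-fold, Ifi44 2.87-fold, and the oligoadenylate synthetase genes Oasl and Oas1a 7.90-fold and 4.02-fold. Probes of the Oas, Ifit and Mx families may share targets, so these members are not fully separate measurements.

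Irf9, a factor of the interferon signal itself, was 1.68-fold lower (adjusted p = 0.00349). Irf7, the factor that amplifies interferon production, had a log2 difference of -2.31 (adjusted p = 0.0113), but lost its call without control 2 (adjusted p = 0.0576) or control 3 (0.0657). Ifit1 was above background on no array. The other members that were not called were Irf1 at -0.49, Ifi27 at -0.53, Psmb8 at -0.73, Psmb9 at -0.76, Gbp2 at -1.29 and Gbp5 at -1.46.

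Among controls, control 1 had the lowest median over the list, at -0.537 log2 units from the control mean, against 0.331 and 0.14 above it for controls 2 and 3. The calls of 11 genes held with every array left out in turn, and 11 genes were called without control 3. The methods' t-test called 1 gene of the list after adjustment. The list median was -1.12 for TBI and -1.56 for MASM + TBI, each against the same controls, and 8 genes were called with the TBI arrays alone. On slide 1 the median was -1.74, and with slide as a fixed block 6 genes were called. Of 12 called genes with a promoter sequence, 8 held the core of GAAA repeats.

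**Figure D3:**
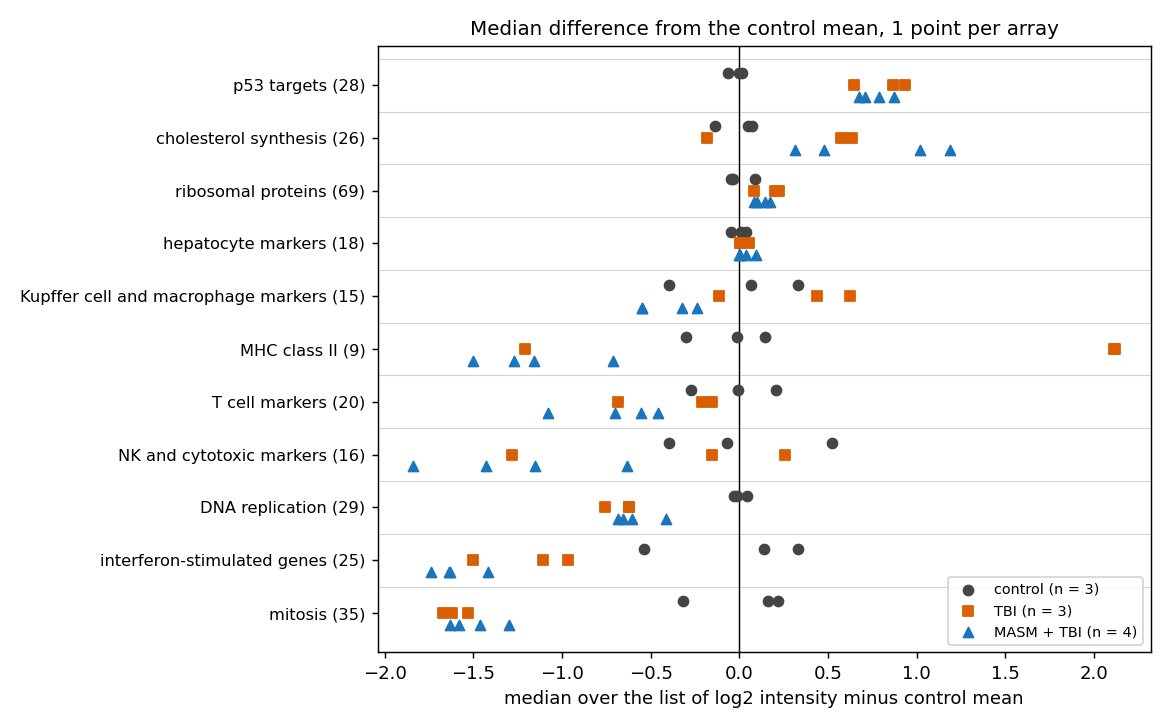
Median over the measured genes of 11 lists of the log2 signal minus the control mean, with 1 point per array coloured by group. The p53 list lies above 0 and the interferon, mitosis and replication lists below 0 on all 7 irradiated arrays, while MHC class II genes are high on TBI arrays 2 and 3.

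Some lymphocyte markers fell. Of 20 T cell markers, 5 were called lower and none higher, beside 2.17% and 1.09% of all genes, with a median log2 difference of -0.41, and 5 of the 20 were above background on no array. Cd3g, a chain of the T cell receptor complex, was at 7.07, 7.31 and 7.09 in controls and at 2.84 to 4.40 (median 3.68) in irradiated livers, above background on 3 of these 7. It was at least 9.80-fold lower (adjusted p = 0.000597). Cd6, a co-receptor, was at 6.96, 7.37 and 7.04 in controls and at 5.11 to 5.87 (median 5.50) after irradiation, 3.02-fold lower.

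Cd3e was called but was above background nowhere, so no fold is given. Lat, an adaptor of the receptor, had a log2 difference of -1.12 (adjusted p = 0.014) and lost its call without control 2 (adjusted p = 0.0697) or control 3 (0.0781). Other T cell genes were not called, with Lck at 0.44, Cd4 at 0.12, Cd3d at -0.71 and Cd8a at -1.39. With slide as a fixed block 3 of the 20 were called lower. The summed linear signal of the T cell markers was 1070 to 1550 in controls, 680 to 982 in TBI livers and 483 to 736 in MASM + TBI livers, with no overlap between control and irradiated arrays.

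Of 12 B cell markers, Cd79b, a chain of the B cell receptor, was called, and was at least 3.39-fold lower (adjusted p = 0.000767). Fcmr, the IgM receptor of lymphocytes, was at 7.69, 7.04 and 6.75 in controls and at 2.68 to 3.97 (median 3.52) in irradiated livers, above background on 4 of 7, and was at least 10.96-fold lower. The summed B cell markers overlapped between groups (572 to 607, 471 to 700 and 303 to 519 in control, TBI and MASM + TBI). Of 16 NK cell and cytotoxic markers, 15 were lower and only Xcl1 was called, at -1.41 (adjusted p = 0.0259), a call lost without control 2 (adjusted p = 0.065), TBI 1 (0.051) or MASM + TBI 1 (0.055).

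Of 11 mast cell markers 2 were called lower, beside 2.17% of all genes. Mcpt1, a mast cell protease, was at 6.46, 6.90 and 6.59 in controls and at 1.68 to 2.82 (median 2.16) after irradiation, above background on 1 of 7, and at least 9.16-fold lower (adjusted p = 5.19e-05). The related chymase Cma1 was at least 1.60-fold lower (adjusted p = 0.0204), and lost its call without control 1, 2 or 3 (adjusted p = 0.0661, 0.0749 and 0.0979). Tpsb2, Cpa3 and Mcpt8 were not called, at -1.57, -1.59 and -1.31. The summed mast cell markers were 1690 to 1730 in controls, 801 to 1400 in TBI livers and 953 to 1190 in MASM + TBI livers.

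Markers of other cell types were taken in turn. Macrophage and Kupffer cell markers (15 measured), endothelial markers (15), cholangiocyte markers (5), hepatocyte markers (18) and MHC class II genes (9) gave no call in either direction, with medians of -0.05, -0.05, -0.11, 0.03 and -0.03. The summed hepatocyte markers lay between 1950000 and 2150000 on every array, and all 18 were above background on at least 1 array. They include some of the brightest probes, whose values quantile normalisation makes alike on every array. This sum therefore cannot show whether hepatocyte content was the same. The summed macrophage markers were 102000 to 157000 in controls, 108000 to 202000 in TBI livers and 83900 to 107000 in MASM + TBI livers. Summed MHC class II genes were 12400 to 18700, 9920 to 91300 and 8070 to 10600 in turn, so that the TBI livers differed widely among themselves.

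Of 16 neutrophil and monocyte markers 1 was called lower, a gene above background on too few arrays to be described, and the median was 0.00277. Outside that list, Retnlg (-3.30, adjusted p = 1.87e-05) and Fcnb (-1.64, adjusted p = 0.000536) were called lower. Of 12 erythroid markers 10 were lower, with a median of -0.68, and of 13 stellate cell markers 9 were lower, with a median of -0.26. The calls in these lists were Ahsp (-1.24, adjusted p = 0.0333) among erythroid and Lrat (-0.61) among stellate cell markers. Single calls in lists of this size, those of the B cell and NK cell lists included, are too few beside the 2.17% of all genes called lower to read as a result about the list. Without control 1 Lrat was at -0.54, under the 1.5-fold threshold. Ahsp lost its call without control 1 or 2 (adjusted p = 0.117 and 0.125), without TBI 1 or 2 (0.0624 and 0.0562), or without MASM + TBI 1, 2, 3 or 4 (0.0583, 0.0517, 0.0581 and 0.0592). The summed T cell and mast cell markers moved with the falls of mitotic and interferon-stimulated genes, and their part in those falls was not tested.

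**Figure D4:**
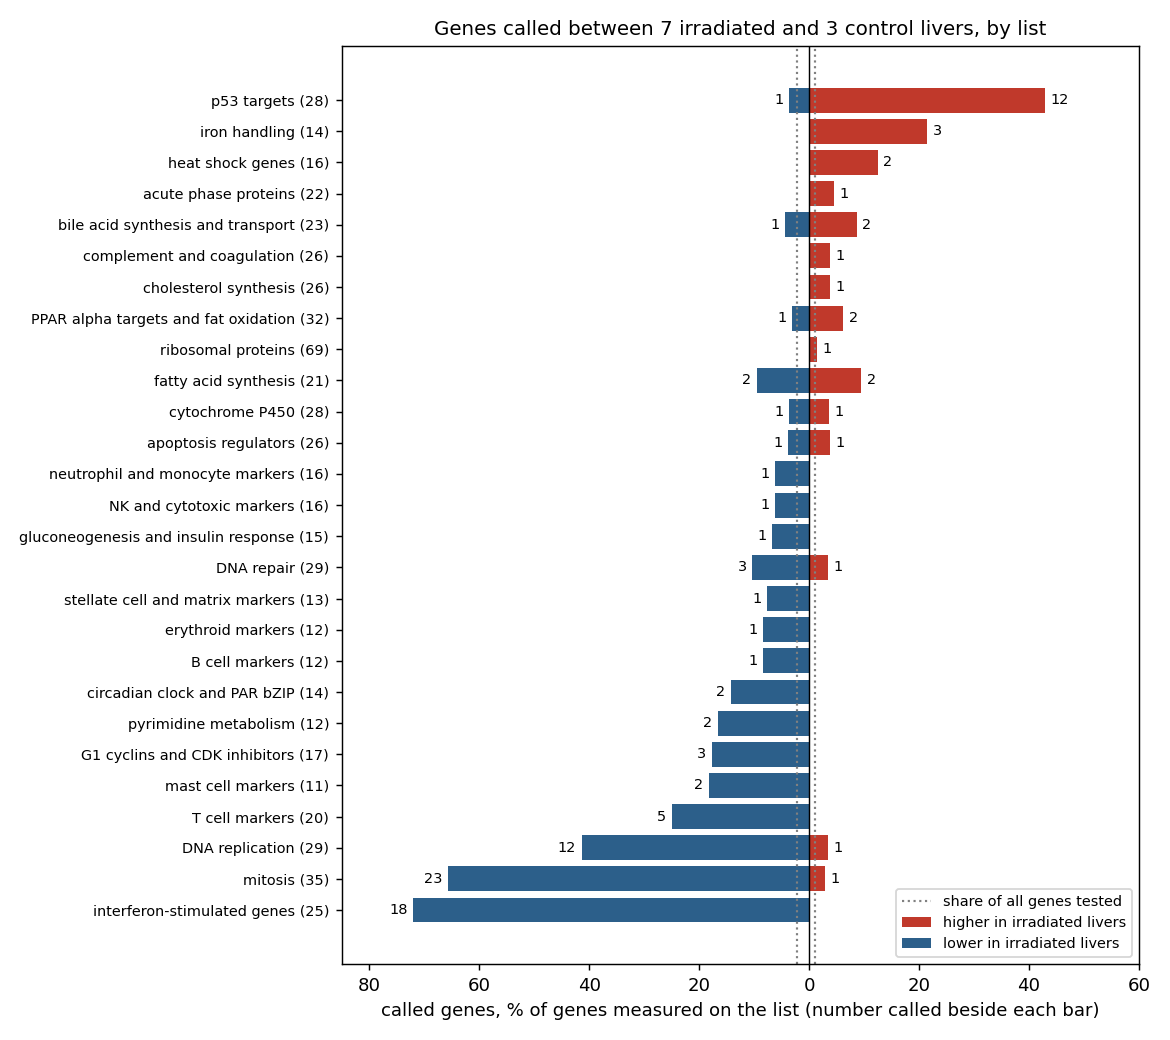
Percent of the measured genes of each list called higher or lower in irradiated against control livers, for lists with at least 1 call. Dotted lines mark the share of all genes called higher (1.09%) and lower (2.17%), and the interferon-stimulated, mitosis, p53 target and DNA replication lists lie farthest from them.

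Genes of liver metabolism are given in turn, and their counts stand beside 1.09% of all genes called higher and 2.17% lower. Tfrc, the transferrin receptor, was at 9.86, 9.91 and 10.05 in controls and at 11.03 to 11.62 (median 11.24) after irradiation, 2.58-fold higher (log2 difference 1.37, SE 0.13, adjusted p = 0.000614). In the same list of 14 iron genes the BMP target Id1 (1.35, adjusted p = 0.0224) and hepcidin, Hamp (1.10, adjusted p = 0.0407), were also called higher. Id1 lost its call without control 1, 2 or 3 (adjusted p = 0.0896, 0.0669 and 0.0718). Hamp lost it without control 2 (adjusted p = 0.0971), without TBI 1, 2 or 3 (0.0744, 0.0649 and 0.0618) or without MASM + TBI 1, 2, 3 or 4 (0.0718, 0.0702, 0.0645 and 0.0553).

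Abcb1b, a multidrug efflux pump, was at 5.08, 5.03 and 4.48 in controls and at 7.12 to 9.18 (median 7.67) in irradiated livers, 8.25-fold higher (adjusted p = 0.00566). Abcc2, the canalicular exporter of conjugates, went the other way, from 14.39, 14.19 and 14.30 in controls to 13.29 to 13.69 (median 13.39), 1.76-fold lower. Among lipid genes Gpam, the first acyltransferase of triglyceride synthesis, was at 6.78, 6.56 and 6.98 in controls and at 8.12 to 8.48 (median 8.40) after irradiation, 2.95-fold higher (adjusted p = 0.000151). Of 21 fatty acid synthesis genes 2 were called higher and 2 lower, of 32 PPAR alpha targets 2 higher and 1 lower, of 23 bile acid genes 2 higher and 1 lower, and of 15 gluconeogenesis genes 1 lower. Some of these calls depended on single arrays. The fatty acid hydroxylases Cyp4a3 and Cyp4a8, the PPAR alpha targets called higher, kept their call only without control 1 or TBI 3 (Cyp4a3) and without control 1 or MASM + TBI 2 (Cyp4a8), with adjusted p up to 0.153 and 0.163. In the fatty acid list the desaturase Scd was called in these fits only without TBI 3 (adjusted p up to 0.169). Of the 2 genes called higher there, 1 lost its call in some fit (adjusted p up to 0.126). Abcb4, the phospholipid exporter of bile, lost its call without control 1, 2 or 3 or MASM + TBI 1 (adjusted p up to 0.118). The glycolytic kinase Pklr fell 2.49-fold, the lipid droplet gene Cidec 1.79-fold and the glucose 6-phosphate transporter Slc37a4 1.88-fold.

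Cyp26b1, which breaks down retinoic acid, was at 7.77, 7.78 and 7.80 in controls and at 4.20 to 6.46 (median 5.16) in irradiated livers, 5.85-fold lower (adjusted p = 0.00854). It was the member called lower of 28 cytochrome P450 genes listed, and Cyp2a1 the member called higher (0.85, adjusted p = 0.0272). The call of Cyp2a1 was lost without control 1 (adjusted p = 0.0977), control 3 (0.133), MASM + TBI 1 (0.0553) or MASM + TBI 4 (0.0503). Outside this list Cyp2t1 was called lower (-0.74, adjusted p = 0.00665), and Cyp4a3 and Cyp4a8, given above, higher. Of 16 heat shock genes 2 were called higher, the chaperone Hsp90aa1, at 1.75-fold, and Hspb8, which was called in the leave-outs only without TBI 1 (adjusted p up to 0.14). Of 22 acute phase proteins Hamp was the gene called, of 26 complement and coagulation genes the kininogen Kng1 (1.54, adjusted p = 0.0188), and Kng1 lost its call without control 1 (adjusted p = 0.0758) or 3 (0.0739).

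Cholesterol synthesis genes lay above the controls without passing the test singly. Of 26 cholesterol synthesis genes, all 26 estimates were above 0 with a median of 0.56, but only Lss was called (1.46, adjusted p = 0.0372). The call of Lss was lost without control 2 or 3 (adjusted p = 0.146 and 0.163), without TBI 2 or 3 (0.059 and 0.0503) or without MASM + TBI 1, 3 or 4 (0.0733, 0.0589 and 0.0635). The list median on array TBI 1 was -0.185, while it was 0.311 to 1.19 on the other irradiated arrays.

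Ribosomal protein genes differed little, with 63 of 69 higher, a median of 0.13 and 1 call, which was lost without control 3, and 69 of 69 were higher under 75th percentile scaling. Of 14 clock genes, the nuclear receptor Nr1d1 (-0.72, adjusted p = 0.021) and the clock output gene Dbp (-1.47, adjusted p = 0.0288) were called lower. Nr1d1 lost its call without control 1 (adjusted p = 0.0701) or 3 (0.105), and Dbp without control 1, 2 or 3 (0.0896, 0.102 and 0.117). Over the list 10 genes were lower and 4 higher, among them Bmal1, which was not called at 2.00 (adjusted p = 0.132). Per2 was at -0.79 for TBI and 0.54 for MASM + TBI against the same controls. It was the 1 clock gene that differed between the irradiated groups in limma (1.33, adjusted p = 0.00955).

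No gene was called in either direction among cytokines and chemokines (27 measured), glucocorticoid-responsive genes (21), immediate-early genes (18), ATF4 targets (17), chaperones of the endoplasmic reticulum (15), Nrf2 targets (20), antioxidant enzymes (15), conjugation enzymes (27), the growth hormone axis (14), urea cycle and amino acid breakdown (30), pericentral genes (13), apolipoproteins (15), oxidative phosphorylation (46) or the proteasome (37). Their medians lay between -0.12 and 0.59, the latter for immediate-early genes, of which 14 of 18 were higher. The cytokine list leaves out some chemokines that were called lower. These were Cxcl10 (-2.16, adjusted p = 0.043), held among the interferon-stimulated genes, Xcl1, given above, and Ccl12 (-3.14, adjusted p = 0.00926). Over all 19 lists without a call, cell markers included, 96 of 377 genes had an unadjusted p under 0.05 in limma, 57 of them higher, and the methods' t-test called 1 after adjustment. Such a p was found for 21.2% of all genes and for 27.6% of the described genes, so that the count says nothing particular to these lists. A missed threshold does not show that these genes were equal in the groups.

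Further genes were among the 15 rises and 15 falls that came first by fitted difference among the 390 eligible genes. Where the dimmer side was at background on some or all arrays the place in this order was not measured, and the bound is given. Nrcam, a neuronal adhesion molecule, was above background on none of the controls and at 5.10 to 6.42 (median 5.89) after irradiation, and was at least 3.92-fold higher (adjusted p = 0.000127). Foxj1, a transcription factor of ciliated cells, Kcnj16, a potassium channel, and Actrt3 were likewise above background only after irradiation, at least 2.27-fold, 2.43-fold and 1.74-fold higher. Vxn was at 7.26 or below in controls and at 8.69 to 10.19 (median 9.80) after irradiation, 8.68-fold higher (adjusted p = 0.00381).

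Of these 30 genes 6 lost their call with some array left out, namely Btg2, Mybl2 and Ccna2, given above, and Noct, Rasd2 and Upp2. Noct, a phosphatase of nicotinamide dinucleotides, had a log2 difference of 3.29 (adjusted p = 0.0382), with MASM + TBI array 4 at 7.49 and a median of 10.55. It was called without MASM + TBI 4 (adjusted p = 0.00198) and not called without any other single array (0.0564 to 0.145). Rasd2, above background on 5 of 7 irradiated arrays, was at least 14.2-fold lower and was not called without control 1, 2 or 3 (adjusted p = 0.0729, 0.0991 and 0.0924). Upp2, a uridine phosphorylase and 1 of 2 genes called lower among 12 pyrimidine genes, had a log2 difference of -3.77 and was not called without control 1, 2 or 3 (adjusted p = 0.0617, 0.0905 and 0.0657).

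The irradiated groups were then compared with each other for these genes. Over all probes, 570 (1.39%) were called between MASM + TBI and TBI. Of the 854 probes, none was called between the irradiated groups in limma, 3 passed an adjusted p under 0.05 without the fold threshold, none of which had a symbol, and 103 had an unadjusted p under 0.05. The pooled fit counts a difference between the irradiated groups as noise, so that probes on which the groups agreed were favoured by the choice. In a fit with a mean for each group, which does not favour them in this way, 1084 described probes were called and 45 of these were also called between the irradiated groups. Of the 854 probes, 312 were called with the TBI arrays alone against control and 543 with the MASM + TBI arrays alone. These fits used fewer arrays and the same controls.

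For 426 of the 854 probes (49.9%) the 95% interval of the difference lay within 1.5-fold in either direction, beside 55.8% of the described probes. For the others the data do not bound the difference so closely. The 2 groups differed for Cdkn1a by -0.57 (95% interval -1.14 to 0.01), for Phlda3 by -0.13 (-0.45 to 0.19), for Bax by -0.02 (-0.23 to 0.18) and for Isg15 by 0.04 (-0.90 to 0.97). Over the called members, the differences ran from -0.57 to 0.41 for p53 targets, from -0.71 to 1.11 for mitotic genes, from -0.58 to 0.34 for replication genes, from -0.996 to 0.63 for interferon-stimulated genes and from -0.14 to 0.08 for T cell markers. The lowest adjusted p among these called members was 0.0712, for Bub1, which was at -2.00 in TBI and -1.39 in MASM + TBI against the same controls.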

How the data were processed

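Liver RNA of 10 rats had been labelled with Cy3 and hybridised to 1 Agilent array per rat. The authors deposited linear, background-subtracted intensities, 1 per spot, from Feature Extraction 10.7.3.1, and the deposited value table equalled the scanner files with a largest difference of 0. The study quantile normalised such intensities. Groups came from the labels alone. Cdkn1a was higher on every array labelled as irradiated than on any labelled as control, but it is itself a result of this comparison. Its values are therefore no separate check on the labels. A heat map of the study, whose column names place TBI and control arrays the other way round, was not used.

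Control spots (1639 of 45018 per array) and outlier spots (76 to 112) were removed, and no spot was saturated. The log2 values of the deposited intensities were quantile normalised over the 10 arrays and averaged per probe, which left 40945 of 41012 probes with a value on every array. An intensity can reflect cross-hybridisation within gene families, and low intensities rest on the background subtraction. RefSeq accessions gave 16968 probes a symbol, and a gene took its brightest probe. For a called gene that was not above background on every array of its dimmer side a fold is given as a lower bound, the mean of the brighter side over the dimmer side with each value raised to at least the dimmest signal called above background on its array. The bound for a dimmer side above background on some arrays was added after the data were seen. The array annotation rests on rn4, so no array coordinate is printed. Probes called in opposite directions were found for 1 gene, Ndn, of which only a probe called lower met the rule for description.

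Irradiated and control means were compared in limma 3.58.1 (R 4.3.3, with the data.table package in version 1.17.8) with Benjamini-Hochberg adjustment over all probes, and MASM + TBI with TBI in a fit of 3 means. Rats are the replicates, and the p-values reflect the spread between these arrays. Plots used matplotlib 3.10.9 (Python 3.11.15, numpy 2.4.6). The steps were tested on simulated data. Named genes were the 15 largest fitted rises and falls among called, non-overlapping genes above background on the whole brighter side, and called list members. The members, lists and tests were chosen with earlier results of these data known, and the interferon promoter motif was added after the values were seen.

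Alternatives were 75th percentile scaling, normexp on raw intensities (offset 50), dim probes left out, 3 means, a trended prior, and slide and replicate blocks. Others were the methods' t-test (run as Welch's test, with unequal variances), either irradiated group alone, no fold threshold, and each array left out. Some genes that enter the counts are not reported singly here.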

Additional observations from a re-analysis of the deposited data

Results flagged for a closer look

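Gaps of a single array from the rest of its group were looked for in 60 groups of values of the named genes, and 6 groups had a gap above the 95% critical value, where chance gives about 1 in 20. MASM + TBI array 4 was low for Gdf15 among the irradiated livers, at a log2 signal of 8.97 with the next at 10.2. The same array was low for Btg2, at 10.8, with the next at 12.6 within MASM + TBI and at 12.1 among all irradiated livers. MASM + TBI array 1 was high for Bard1, at 2.99, with the next at 1.36 within MASM + TBI and at 1.62 among all irradiated livers, where the probe was above background on none of the arrays. That array was low for Fcmr within MASM + TBI, at 2.68 with the next at 3.82.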

How the results depend on the processing

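Of 854 described calls (34.78% higher), none was called in the opposite direction under any alternative. Calls numbered 437 under normexp, 224 with slide as a fixed block (45.98% higher), 427 by the methods' t-test and 1885 at its unadjusted p. For normexp, the slide block and the methods' t-test in turn, calls lower numbered 12, 5 and 11 of mitotic genes (23 as reported), 4, 3 and 6 of replication genes (12) and 2, 3 and 3 of T cell markers (5, and 9 at the t-test's unadjusted p). Interferon-stimulated genes (18) gave 6 with the slide block, 1 by the methods' t-test and 8 with TBI arrays alone, where 7 replication genes were called. With each array left out, calls ranged from 372 (without control 3) to 841, with 419 without control 2, and the share higher from 33.12% to 38.17%. The ranges were 11 to 17 for interferon-stimulated genes, 15 to 24 for mitosis, 7 to 12 for replication, 11 to 13 for p53 targets, 4 to 6 for T cell markers and 0 to 11 for called probes differing between the irradiated groups (3 as reported). The last count was 18 under 75th percentile scaling, 1 with the trended prior, 28 with slide as a random block and 0 with the replicate block. Same-numbered arrays did not pair: their deviations correlated at 0.242, 0.161 and 0.128 for control and TBI but at -0.0885, 0.345 and 0.0321 for control and MASM + TBI, and at -0.333, 0.15 and 0.114 for the irradiated groups. With the replicate number as a block 571 probes were called, 473 of them shared. The cause of these shifts was not tested. Signal over background limits values near the floor, where a bound replaces the fold.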

Other observations

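Families noticed after their values were seen are given as values with no test of the family. Of 10 measured tubulin genes, all 10 estimates were higher in the irradiated livers, with a median log2 difference of 0.796, and 5 were called, namely Tuba3a at 0.92, Tuba4a at 1.19, Tubb2b at 0.93, Tubb4b at 1.02 and Tubb6 at 1.34. Tuba8 and Tubb4a were above background on 0 and 1 of 3 controls and did not meet the rule for description. Tubb3 was at 1.19 for TBI and 0.27 for MASM + TBI against the same controls, and differed between the irradiated groups by -0.92 (adjusted p = 0.0247). Tubulin probes may share targets. Of 4 GTPases of immunity-associated proteins, which are expressed in lymphocytes, 3 were called lower, with Gimap1 at -0.80, Gimap5 at -0.75 and Gimap6, above background on 5 of 7 irradiated arrays, at least 1.51-fold lower. Of 5 members of the oligoadenylate synthetase family 4 were called lower, with a family median of -2.30. Of 6 linker histones, H1f1 and H1f5 were called lower, H1f5 at -2.17. The 2 that were higher, H1f6 and H1f7, did not meet the rule for description, and the 4 that met it were lower. The share of all genes called was 1.09% higher and 2.17% lower.

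MHC class II genes varied between the irradiated arrays. Their median log2 difference from the control mean was 2.12 and 2.11 on TBI arrays 2 and 3, -1.21 on TBI array 1 and between -1.50 and -0.71 on the MASM + TBI arrays. Immediate-early genes, none of which was called, had a median of -0.42 on MASM + TBI array 4 and between 0.21 and 1.14 on the other irradiated arrays.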
